A study of Rattus norvegicus with 6 samples.

Results

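Gdf15, Sesn2, Trib3, Atf6, Creb3l1 and Dnajb11 are 6 genes of the stress response of the endoplasmic reticulum (ER) and of the transcription factor ATF4, and they were followed here in neonatal rat ventricular cardiomyocytes (NRVCs) treated with antiretroviral drugs (ARVs). They were taken by gene name from a table of 1756 genes, with earlier results of these data known. Each of the 6 names matched 1 gene. With ARVs, Gdf15 rose 1.87-fold, Creb3l1 1.62-fold, Trib3 1.42-fold, Sesn2 1.31-fold and Atf6 1.23-fold, while Dnajb11, the only ER chaperone among them, fell by 32.0%. In each of the 6 genes, the 3 libraries of one treatment lay apart from the 3 of the other. Most genes of the table, which was selected on this contrast, did the same. Of those tested, 39.3% had every ARVs library above every DMSO library and 56.8% had every one below.

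The cells were isolated from the heart ventricles of Sprague Dawley rats 2 to 3 days old and plated at 100000 cells per well. One group received Ritonavir, Abacavir, Atazanavir and Lamivudine at 5 µM for 24 h, and the control group received DMSO for 24 h, with 3 RNA sequencing libraries in each group. Of these, Ritonavir and Atazanavir act on the viral protease of HIV, and Abacavir and Lamivudine on its reverse transcriptase. The study separated the myocytes from other ventricular cells by pre-plating, and such primary cultures can still hold other cells. The 4 drugs were given together, with no statement in the labels whether the dose is that of each drug, so an effect of one drug cannot be told apart from that of the others.

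Proteins that enter the secretory route fold in the ER with the help of chaperones. When unfolded proteins build up there, the membrane sensors PERK, IRE1 and ATF6 start the unfolded protein response: PERK phosphorylates eIF2α, which lowers translation in general and raises that of ATF4, IRE1 splices the Xbp1 mRNA, and ATF6 moves to the Golgi, where proteases release its transcription factor part. Other eIF2α kinases, which sense amino acid shortage, heme shortage or viral RNA, feed into the same ATF4 arm, known as the integrated stress response. Heart muscle cells use both routes under ischemia, pressure load and toxic drugs, and GDF15 is measured in blood as a marker of cardiac stress.

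ATF4 binds a CARE element (TGATGNAA) in its target genes, and ATF6 and XBP1 act through the ER stress elements ERSE (CCAAT and CCACG, 9 bases apart) and ERSE-II (ATTGG and CCACG, 1 base apart). Promoter sequences from RefSeq (assembly GRCr8), running from 250 bases before to 50 bases after the annotated start, were available for 5 of the 6 genes, with 2 windows for Gdf15, and Atf6 was not matched. Of the 6 windows, each searched for 6 motifs, those with a match are shown. They belong to the ATF4 target Trib3 and to the chaperone Dnajb11. A link of the matches to the changes of these genes was not tested. Both genes lie on the minus strand of the assembly and both sequences are written 5′ to 3′ along the gene. Capitals mark the match, which is a CARE on the opposite strand for Trib3 and an ERSE-II on the gene's own strand for Dnajb11.
Trib3, chr3:161275534-161275653: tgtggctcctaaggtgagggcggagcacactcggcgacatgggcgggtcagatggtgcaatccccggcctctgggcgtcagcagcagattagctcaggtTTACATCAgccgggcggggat
Dnajb11, chr11:91672800-91672919: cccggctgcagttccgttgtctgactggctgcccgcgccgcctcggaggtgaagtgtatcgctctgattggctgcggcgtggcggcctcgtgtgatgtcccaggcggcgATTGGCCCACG

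The CARE of Trib3 spans positions -21 to -14 from the annotated start, and the ERSE-II of Dnajb11 spans -10 to 1. Searched on both strands, TGATGNAA was found in 3.98% of all 33469 windows of the same length and its form TGATGCAA in 0.795%, ERSE-II in 0.0508%, ERSE in 0.0657%, the unfolded protein response element UPRE (TGACGTGG) in 0.595% and the cyclic AMP element CRE (TGACGTCA) in 1.83%. TGATGCAA is a special case of TGATGNAA, so their matches overlap. The windows of Gdf15, Sesn2 and Creb3l1 did not hold these letters. Among the 1432 windows of genes in the table, TGATGNAA was found in 1.75% and ERSE-II in 0.209%. A match describes the sequence only, and binding was not measured.

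The table gives raw read counts, the same counts divided by a size factor of each library (called size-factor counts below) and FPKM, fragments scaled by transcript length and sequencing depth. It lists only genes that passed the authors' own comparison of these same libraries at an adjusted p under 0.05. Tests on it therefore describe the size and the spread of a change and are not independent evidence for it, and a gene outside the table was not analysed here. The counts of the listed genes summed to 4871069 to 5871352 in the DMSO libraries and to 4329218 to 5271521 in the ARVs libraries. Nothing in the sources used here says that the libraries of a group came from separate cell preparations, so a p-value here reflects only library-to-library spread, which may be technical. DMSO replicate 2 was the most distant library of its group: over all listed genes the chi-square per degree of freedom was 29.4 and 32.0 in its pairs, against 4.83 to 6.42 in the other pairs within a group. In bulk RNA, fewer cells of a type and less RNA per cell cannot be told apart.

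Of the 6 genes, 5 passed as higher and 1 as lower at an adjusted p under 0.05 in edgeR's quasi-likelihood test, whereas 39.9% of the 1751 genes tested passed as higher and 60.1% as lower. Libraries did not overlap between treatments in 6 of the 6, with 5 above and 1 below, against 39.3% of all tested genes with every ARVs library above every DMSO library and 56.8% with every one below. Under median-ratio factors over the listed genes the split of all genes was 699 higher and 536 lower, in place of 699 and 1052. Since the table had been selected on this contrast, nothing is read from these shares. All 6 genes passed the filter on low counts.

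**Figure D1:**
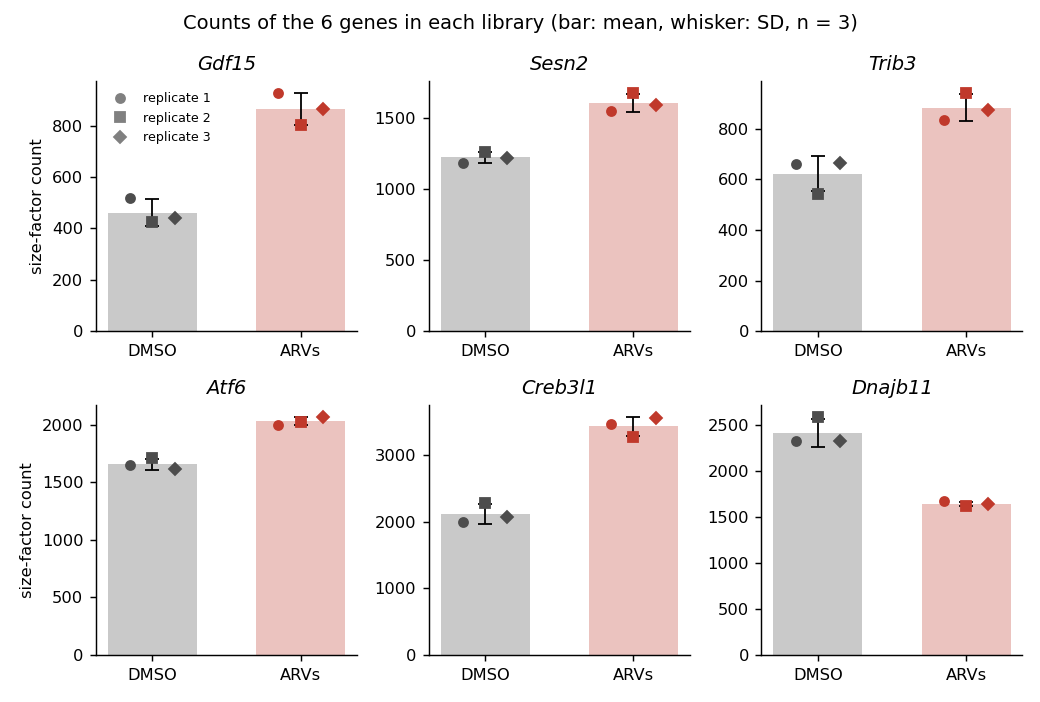
Size-factor counts (vertical axes, each from 0) of the 6 genes in the 3 DMSO (grey) and 3 ARVs (red) libraries, where a point is a library with its shape giving the replicate number, a bar the mean and a whisker the SD. In 5 genes all ARVs points lie above all DMSO points, and in Dnajb11 they lie below.

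Gdf15 encodes a secreted cytokine of the TGF-β superfamily that acts on the brainstem receptor GFRAL, and it is a known target of both ATF4 and p53. It lies at chr16:20555395-20557978 on the plus strand (ENSRNOG00000019661, Rattus norvegicus release 97, the genome of the deposited table, as for the other genes here). Its size-factor counts were 519.9, 425.4 and 439.7 with DMSO and 925.9, 800.4 and 866.0 with ARVs (replicates 1, 2 and 3, in this order here and for the genes below). The lowest ARVs library thus stood well above the highest DMSO library, and replicate 1 was the highest of its group in both treatments. The mean went from 462 ± 50.9 to 864 ± 62.8 (SD, n = 3 each), which is 0.90 on the log2 scale (standard error 0.09, 95% interval 0.69 to 1.12, adjusted p = 1.3e-04 from edgeR). By the size of its log2 fold change, Gdf15 ranked 39 of the 699 genes that were higher.

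Sesn2 encodes Sestrin 2, a stress-induced leucine sensor that restrains mTORC1 (chr5:150684133-150704117, minus strand, ENSRNOG00000042785). It had 1188, 1266 and 1219 size-factor counts in the DMSO libraries and 1555, 1679 and 1591 in the ARVs libraries. Libraries of a group lay close together here, with a coefficient of variation of 3.20% for DMSO and 3.97% for ARVs, where counting alone gives 2.83% and 2.51%. The log2 fold change was 0.39 (standard error 0.05, 95% interval 0.27 to 0.52, adjusted p = 5.2e-04 from edgeR), rank 239 of 699.

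Trib3 encodes a pseudokinase that binds the kinase AKT and, as an ATF4 target, dampens ATF4 activity in return (chr3:147813473-147819571, minus strand, ENSRNOG00000007319). The DMSO libraries gave 658.9, 543.1 and 666.1 size-factor counts and the ARVs libraries 834.0, 940.9 and 872.7. DMSO replicate 2 was the low one of its group, and ARVs replicate 2 the high one. The log2 fold change was 0.50 (standard error 0.09, 95% interval 0.30 to 0.71, adjusted p = 1.7e-03 from edgeR), and without DMSO replicate 2 it was 0.41, still past the threshold.

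Atf6 encodes the ER membrane sensor itself, whose cut form is a transcription factor for chaperone genes (chr13:89055983-89242443, minus strand, ENSRNOG00000024632). Its size-factor counts were 1645, 1706 and 1613 with DMSO and 1996, 2023 and 2069 with ARVs. This was the smallest change of the 6 genes, and the gap between the groups exceeded the range within either of them. The log2 fold change was 0.29 (standard error 0.05, 95% interval 0.19 to 0.40, adjusted p = 9.3e-04 from edgeR), rank 405 of 699. The count does not tell how much of the protein was cut and active.

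Creb3l1 encodes OASIS, another ER membrane factor that is released by the same kind of cutting and is known for driving collagen and secretory genes in bone and fibroblasts (chr3:80892435-80933283, minus strand, ENSRNOG00000005413). It went from 1997, 2279 and 2067 size-factor counts in the DMSO libraries to 3458, 3271 and 3557 in the ARVs libraries. Every ARVs library exceeded the highest DMSO library by more than the whole range of either group. The log2 fold change was 0.70 (standard error 0.06, 95% interval 0.56 to 0.84, adjusted p = 6.5e-05 from edgeR), rank 72 of 699.

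Dnajb11 encodes ERdj3, a soluble J-domain partner of the ER chaperone BiP that hands it unfolded proteins (chr11:81741297-81757813, minus strand, ENSRNOG00000001803). It had 2329, 2596 and 2327 size-factor counts with DMSO and 1673, 1622 and 1641 with ARVs. The ARVs libraries were almost level, with a coefficient of variation of 1.59% against 2.48% from counting alone, while DMSO replicate 2 stood above the other DMSO libraries. The mean fell from 2417 ± 155 to 1645 ± 26.1 (SD, n = 3 each), which is -0.56 on the log2 scale (standard error 0.06, 95% interval -0.68 to -0.43, adjusted p = 1.2e-04 from edgeR). Among the 1052 lower genes it ranked 427 by size.

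Per transcript length, the order of the 6 genes changed with treatment. With DMSO, Dnajb11 had the highest level, 60.5 to 69.3 FPKM, followed by Creb3l1 (37.9 to 44.4), Gdf15 (24.0 to 28.5), Atf6 (17.5 to 18.7), Sesn2 (15.9 to 17.4) and Trib3 (14.4 to 17.5). In that order, Sesn2 and Trib3 were the neighbours whose ranges overlapped. With ARVs, Creb3l1 came first with 64.9 to 69.1 FPKM, then Gdf15 with 46.0 to 52.4 and Dnajb11 with 43.6 to 44.8, all without overlap. Trib3 (22.2 to 25.5 FPKM), Atf6 (22.0 to 22.6) and Sesn2 (21.4 to 23.5) then formed a group in which each overlapped the next. Dnajb11 thus went from above Creb3l1 and Gdf15 in every DMSO library to below both in every ARVs library.

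**Figure D2:**
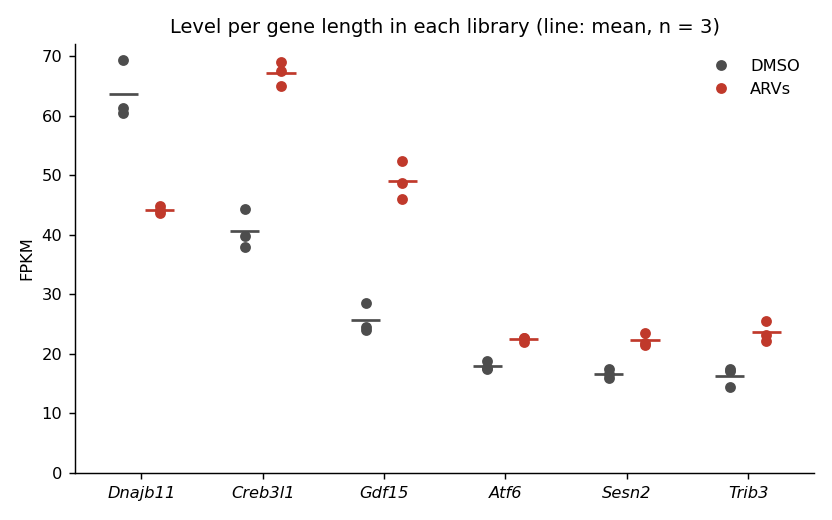
FPKM (vertical axis) of the 6 genes in each library, DMSO in grey and ARVs in red, where a line marks the mean of 3 libraries. Dnajb11 is the highest gene with DMSO and Creb3l1 the highest with ARVs.

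Ratios of raw counts within a library do not depend on how libraries are scaled. Creb3l1 had 0.857, 0.878 and 0.888 reads per read of Dnajb11 in the DMSO libraries and 2.07, 2.02 and 2.17 in the ARVs libraries, a difference of 1.25 on the log2 scale. The ratio of Gdf15 to Dnajb11 went from 0.223, 0.164 and 0.189 to 0.553, 0.494 and 0.528, the widest difference of the 15 pairs with 1.46. The ratios of Sesn2, Trib3 and Atf6 to Dnajb11 differed by 0.95, 1.06 and 0.85, so all 5 ratios to the chaperone were higher in every ARVs library than in any DMSO library. With 5 genes wholly above and Dnajb11 wholly below in size-factor counts, these ratios could not overlap.

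Among the 5 genes that rose, the ratio of Atf6 to Creb3l1 was 0.824, 0.749 and 0.781 with DMSO and 0.577, 0.619 and 0.582 with ARVs, and the ratio of Sesn2 to Creb3l1 differed by -0.31 on the log2 scale. The ratios of Gdf15 to Sesn2, Atf6 and Trib3 were higher in the ARVs libraries by 0.51, 0.61 and 0.40. The ratios of Gdf15 to Creb3l1 (difference 0.21, exact two-sided permutation p = 0.3), Sesn2 to Trib3 (-0.11, p = 0.6) and Trib3 to Creb3l1 (-0.19, p = 0.4) overlapped between treatments. The other 12 of the 15 pairs did not overlap, with an exact p of 0.1 each (0.125 after Benjamini-Hochberg adjustment over the 15 pairs). With 3 libraries against 3, an exact p cannot go below 0.1, so no pair can pass 0.05. All genes of the table were selected on this contrast, and single genes lay wholly above in 39.3% and wholly below in 56.8% of those tested. The share over all pairs of tested genes was not computed, so nothing is read from the count of 12 pairs.

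**Figure D3:**
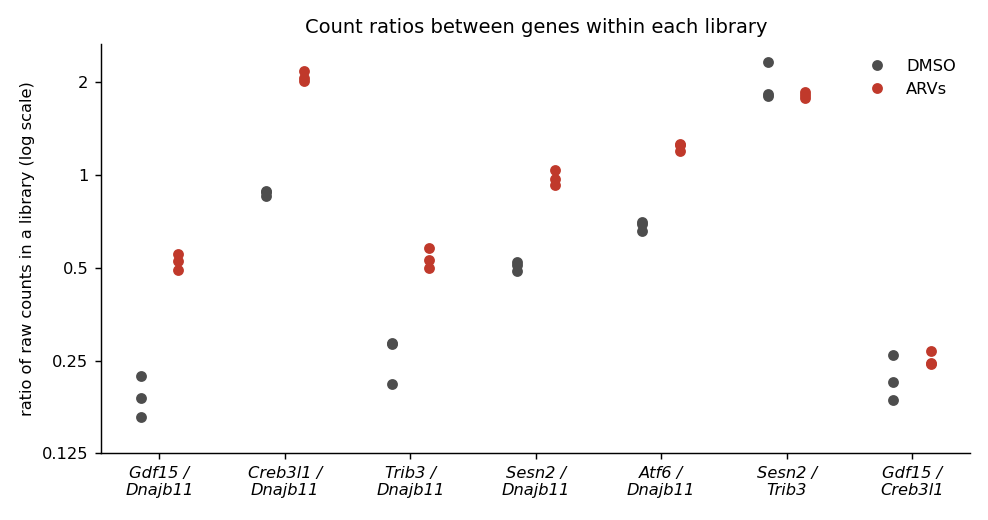
Ratio of raw counts of 2 genes within each library (vertical axis, log scale) for 7 of the 15 pairs, with DMSO in grey and ARVs in red. The 5 ratios to Dnajb11 are higher in every ARVs library, and the ratios of Sesn2 to Trib3 and of Gdf15 to Creb3l1 overlap.

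DMSO replicate 2 did not pull the 6 genes one way. It was the lowest DMSO library for Gdf15, by -0.17 on the log2 scale from the mean of the other DMSO libraries, and for Trib3, by -0.29. It was the highest for Sesn2 (0.07), Atf6 (0.07), Creb3l1 (0.17) and Dnajb11 (0.16). Without it, log2 fold changes were 0.84 for Gdf15, 0.42 for Sesn2, 0.41 for Trib3, 0.32 for Atf6, 0.75 for Creb3l1 and -0.50 for Dnajb11. All 6 still passed edgeR's test, but so did 701 genes as higher and 1050 as lower over the whole table. Passing there does not set the 6 genes apart.

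The scaling of the libraries moved the size of all 6 changes. With median-ratio factors computed over the listed genes, which take most of these called genes as unchanged, the log2 fold changes shifted upwards by a median of 0.20 over all genes. Atf6 then stood at 0.49 in place of 0.29, Sesn2 at 0.59 in place of 0.39 and Dnajb11 at -0.36 in place of -0.56, and Gdf15, Creb3l1 and Trib3 stood at 1.10, 0.89 and 0.71 in place of 0.90, 0.70 and 0.50. Direction and call held for the 6 genes there, as in each of the 14 alternative settings. Most tested genes also passed, in a table selected on this contrast.

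The pathway around the 6 genes was followed with lists of genes, of which the part in the table can be described. Over all tested genes, 39.9% passed as higher and 60.1% as lower. The table was selected on this contrast, so a pass alone is no evidence about a list. Of 25 sensors and transcription factors of the ER and integrated stress responses, 9 were in the table, 8 higher and 1 lower, with a median log2 fold change of 0.26, where the median of all tested genes was -0.25. Beside Creb3l1 and Atf6, the higher ones were Crebrf (0.75), a regulator of the related factor CREB3, Cebpb (0.57), Ppp1r15a (0.26), which targets the phosphatase that reverses eIF2α phosphorylation, Atf6b (0.26), the sister of Atf6, the heme-regulated eIF2α kinase Eif2ak1 (0.24) and Atf5 (0.18). The double-stranded RNA kinase Eif2ak2 was the lower one (-0.46, standard error 0.15), and its DMSO libraries differed widely, with 875.5, 1357 and 912.9 size-factor counts against 744.2, 747.8 and 790.6 with ARVs. It did not pass edgeR's test without ARVs replicate 1 (adjusted p = 0.057) or 2 (0.052), nor with median-ratio factors (0.18). Without DMSO replicate 2, the library with 1357, its log2 fold change was -0.23. Atf4, Ddit3, Xbp1, Ern1, Eif2ak3 and Atf3 are among the 16 factors of this list outside the table and were not analysed here. ATF4 is regulated mainly through translation of its mRNA, which was not measured.

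Known and proposed targets of ATF4 were on a list of 38 genes, of which 20 were in the table. Their median log2 fold change was 0.32, with 19 higher and 1 lower, against 39.9% and 60.1% of all tested genes. Gdf15, Trib3 and Sesn2 are 3 of these, and of the other 17, 16 were higher. Of the amino acid transporters on this list, 6 were in the table, all higher: Slc7a11 (0.69), the cystine carrier, Slc1a5 (0.53), a glutamine carrier, Slc6a9 (0.47), a glycine carrier, Slc3a2 (0.39), the heavy chain shared by several carriers, its light chain partner Slc7a5 (0.32), and Slc1a4 (0.22), a carrier of neutral amino acids. The list was made with 8 such genes, so their number describes the list. Slc3a2 is given in full as an abundant example, with 3059, 3242 and 3080 size-factor counts with DMSO and 3987, 4324 and 3999 with ARVs, groups that did not overlap. Asns, asparagine synthetase, rose by 0.32 on the log2 scale (standard error 0.06) and went from 1763, 2013 and 1882 to 2330, 2301 and 2432. The lower one was Vldlr, a lipoprotein receptor (-0.44, standard error 0.11). Cebpb, Ppp1r15a and Atf5 are on this list and on the list of factors. The other 18 genes of the ATF4 list, among them Ddit3, Atf3, Chac1, Ddit4 and Fgf21, lie outside the table and were not analysed here.

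Aminoacyl-tRNA synthetases, which charge tRNAs with amino acids and many of which ATF4 induces, had 7 of 20 genes in the table. All 7 were higher, against 39.9% of all tested genes, in a table selected on this contrast. The remaining 13 synthetases were not analysed here. The log2 fold changes of the 7 were small and alike, from 0.17 for Vars to 0.24 for Wars, with standard errors of 0.04 to 0.07, and the median was 0.21. The others were Cars (0.23), Aars (0.22), Sars (0.21), Eprs (0.19) and Nars (0.18). All 7 stood below Sesn2, Trib3 and Gdf15 in fold change.

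Of 31 chaperones and folding enzymes of the ER, Dnajb11 alone was in the table, so its decrease has no listed partner to be set beside. Hspa5, Hsp90b1, Calr and the other 27 were not analysed here. Their absence from a table of called genes is no result about them. For degradation of misfolded ER proteins, 4 of the 22 genes reported from the list were in the table. All 4 were higher, against 39.9% of all tested genes. They were Herpud1 (0.26), Selenos (0.24), Sel1l (0.19), the adaptor of the HRD1 ligase, and the lectin Os9 (0.19). Herpud1 is a ubiquitin-like ER membrane protein that is also on the ATF4 list. For translocation into the ER and export from it, 4 of 26 were in the table and split evenly, with Ssr4 (0.25) and Sec61a1 (0.15) higher and Sec61g (-0.29) and the COPII coat gene Sec24a (-0.26) lower. Sec61g and Sec24a did not pass with median-ratio factors (-0.09 and -0.06, adjusted p = 0.3 and 0.42 from edgeR).

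**Figure D4:**
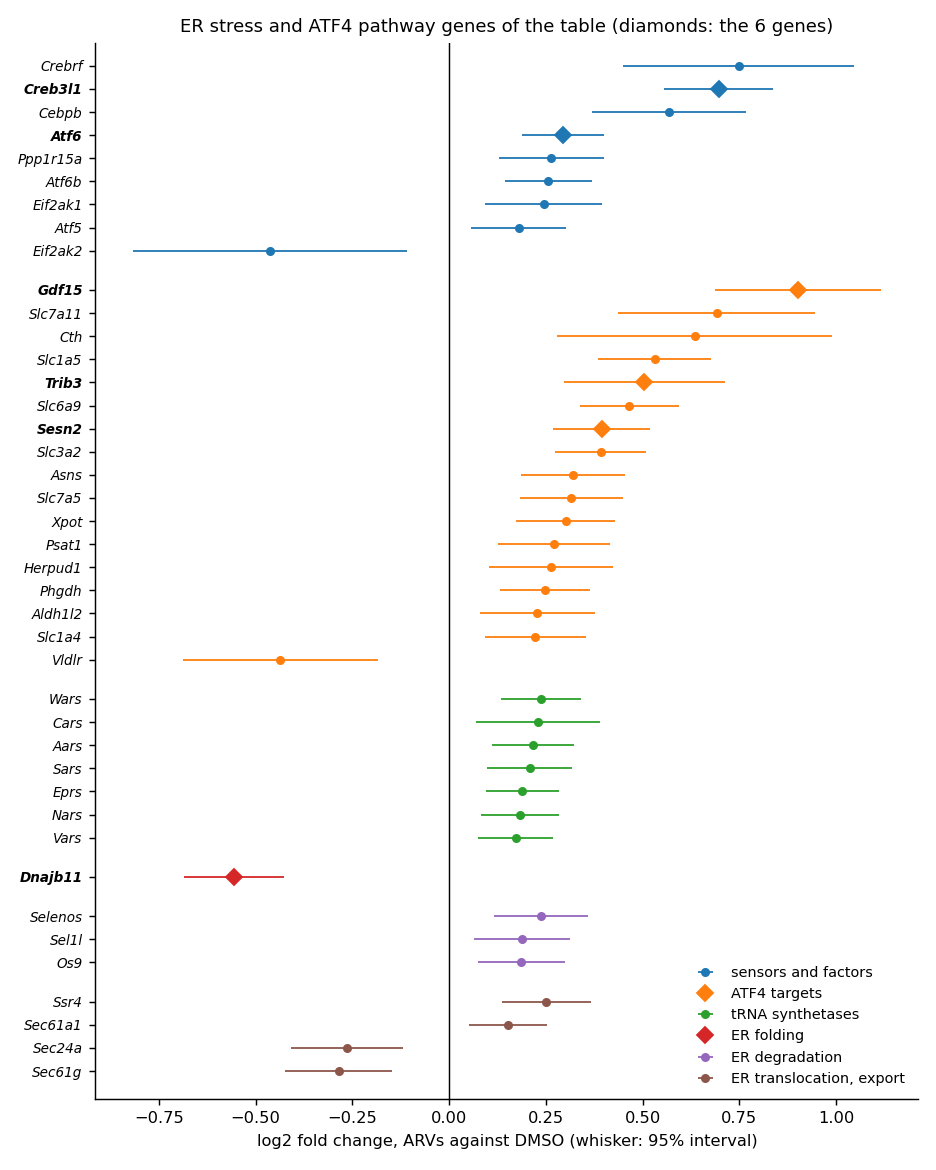
Log2 fold change of ARVs against DMSO (horizontal axis) for each gene in the table from the 6 lists of stress factors, ATF4 targets, tRNA synthetases, folding, degradation, and translocation and export, where a whisker is the 95% interval, a diamond one of the 6 genes and a circle another gene, and genes are grouped and coloured by list. A gene on several lists is drawn once, and Dnajb11 is the only point in the folding group.

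Gdf15 and Sesn2 are also p53 targets, and 8 of 27 genes on a p53 list were in the table, 7 higher and 1 lower. Over all tested genes, 39.9% passed as higher and 60.1% as lower, in a table selected on this contrast. Apart from Gdf15 and Sesn2, the higher ones on the list were Gadd45a (0.50), which acts in growth arrest and is also induced under ER stress, the death receptor gene Eda2r (0.46), the pore-forming Bax (0.34), Tp53inp1 (0.33) and Phlda3 (0.26). Gdf15 had the largest log2 fold change of the 8, and Sesn2 lay between Eda2r and Bax. The lower one was Tigar (-0.51, standard error 0.17). In edgeR's test, Tigar did not pass without DMSO replicate 3 (adjusted p = 0.052) or ARVs replicate 2 (0.059) or with median-ratio factors (0.091), and Tp53inp1 did not without DMSO replicate 1 (0.059) or ARVs replicate 2 (0.063). Of the Trib and Sesn families and the receptors of Gdf15, Trib1 was the other gene in the table (0.32, standard error 0.10). Since Gdf15 and Sesn2 belong to both lists, the counts of these lists cannot tell an ATF4 source from a p53 source.

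For each of the 6 genes, the 3 listed genes of at least 50 mean counts with the most similar profile over the 6 libraries were taken by Pearson's r on log2(size-factor count + 1). They were S1pr2, Tas1r2 and Abca3 for Gdf15 (r = 0.996 to 1.00), Gas7, Slc3a2 and Rab29 for Sesn2 (0.997 to 0.998), Cxcl10, Klf2 and Armcx6 for Trib3 (0.991 to 0.992), Npm1, Use1 and Fn1 for Atf6 (0.997 to 0.998), Itgb3, Fzd1 and Slc1a5 for Creb3l1 (0.998 to 1.00) and Cd200, Espl1 and Agpat3 for Dnajb11 (0.998 to 0.999). An amino acid transporter of the ATF4 list was thus among the nearest profiles of Sesn2 and of Creb3l1, which is not on that list. Those of Gdf15 and Trib3, which are on it, and of Atf6 and Dnajb11 held none. Among the 6 genes themselves, Atf6 and Creb3l1 were most alike (r = 0.99), Trib3 and Creb3l1 least alike of those that rose (0.84), and Dnajb11 ran opposite to the others (-0.98 to -0.93). All these values rest on 6 libraries in 2 groups selected for a difference, so a shared direction alone gives a high r.

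Markers of the cell types that such cultures can hold also differed between treatments. Over all tested genes, 39.9% passed as higher and 60.1% as lower, in a table selected on this contrast. Numbers of markers higher or lower therefore do not measure a share of cells. Of 12 cardiomyocyte markers, the table listed 2 that were higher, Myh7 and Pln, and 2 that were lower, Nppa and Myh6. Mean size-factor counts went from 311800 to 255700 for Nppa and from 178100 to 96960 for Myh6. They went from 106600 to 151600 for Myh7 and from 29730 to 38640 for Pln. Their sum, 585500 to 649200 with DMSO and 519100 to 562600 with ARVs, thus mixes both directions and does not measure a share of cardiomyocytes. Fibroblast markers (5 of 11 in the table, 2 higher and 3 lower) summed to 159500 to 164400 and 155500 to 157500, and smooth muscle and pericyte markers (5 of 8, all lower) to 104900 to 128000 and 74410 to 86310. The 2 of 8 endothelial markers in the table, 1 higher and 1 lower, summed to 641.3 to 710.3 and 721.5 to 790.4, and the 2 of 9 macrophage markers, both higher, to 204.9 to 272.7 and 364.4 to 395.2. None of these listed markers was at 0. Their part in the changes of the 6 genes was not tested.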

How the data were processed

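The authors aligned reads by HISAT2 against Rattus norvegicus release 97 and used StringTie v1.3.3b for transcript assembly, and the submitters' processing notes also name edgeR and DESeq2. The deposited table holds raw counts per gene and library, a normalized signal (the count divided by a size factor of the authors) and the authors' FPKM. The table also gives the authors' log2 fold changes, p-values and adjusted p-values, which were not used. Raw counts were tested in R 4.3.3 with edgeR 4.0.16 (filterByExpr, glmQLFit, glmQLFTest, Benjamini-Hochberg over 1751 of 1756 genes, adjusted p under 0.05). Libraries were scaled by the authors' size factors, 0.889 to 1.11, because TMM over a table of called genes takes called genes as unchanged. Standard errors come from the fold change and F. The test was checked on simulated counts. Coordinates are those of the table, and promoters those of RefSeq GRCr8.

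The genes named are the 6 genes, up to 10 of each pathway list by smallest p, and the 3 nearest profiles of each of the 6. Cardiomyocyte markers in the table are also named, to show the directions that their sum mixes. Genes outside the table are named as examples. Herpud1 is named through the degradation list. Vldlr and Slc1a4 were named after their values were seen. One gene of the degradation list is not reported here, and the counts of that list do not include it. The 6 genes and the lists were chosen with earlier results of these data known. Alternatives were TMM and median-ratio factors, DESeq2 1.42.0, limma 3.58.1 on log2(FPKM + 0.1), an adjusted p of 0.01, no filter, a minimum of 10 counts in each library, the replicate number as a block, and leaving out each library.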

Additional observations from a re-analysis of the deposited data

How the results depend on the processing

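All 6 genes kept their direction and passed the test in each of the 14 settings, with log2 fold changes of 0.84 to 1.10 for Gdf15, 0.36 to 0.59 for Sesn2, 0.41 to 0.71 for Trib3, 0.28 to 0.49 for Atf6, 0.66 to 0.89 for Creb3l1 and -0.58 to -0.36 for Dnajb11. Over all genes, median-ratio factors left 536 lower genes in place of 1052, with 699 higher as before, and leaving out a library gave 672 to 701 higher and 985 to 1050 lower. Most tested genes thus passed in these settings, in a table of called genes, so passing does not set the 6 genes apart. The numbers of libraries were not taken as pairs, since the correlation of same-numbered libraries after removal of the group means was 0.0853, 0.276 and 0.0999. With the replicate block, 699 genes were higher and 1052 lower, and of the 6 genes 5 and 1. Of 35 other named genes over the 14 settings, 473 values kept their call, 17 lost it and 0 reversed. Of the 17, 4 were with median-ratio factors (Eif2ak2, Sec61g, Sec24a and Tigar), and the rest came from the threshold of 0.01, from limma on FPKM (Eif2ak2, adjusted p = 0.057) and from leaving out a library (Eif2ak2, Tigar and Tp53inp1). The causes were not tested. At 408 to 3609 raw counts per library, counting gives the 6 genes a coefficient of variation of 1.72% to 4.59%, and 3 libraries a group limit the precision further.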
